A study of Mus musculus with 2 samples.

Results

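The interferon regulatory factors (IRFs) are transcription factors that share a DNA-binding domain and read short GAAA repeats in the promoters of interferon and immune genes. The family was taken by gene symbol, as Irf1, Irf2, Irf3, Irf4, Irf5, Irf7, Irf8 and Irf9. All 8 were present among the 15623 genes with a value in either library, and all 8 were among the 15593 genes tested.

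The data were 2 bulk RNA-seq libraries, 1 per group, from peritoneal macrophages that thioglycollate had drawn into the cavity in C57BL/6 wild-type mice, aged 6 to 8 weeks by the study's methods, and that were purified by adherence without a sort. One was from nontreated cells (NT) and the other from cells given interleukin-4 (IL-4) for 6 h. IL-4 signals through Stat6 and drives M2 polarization of macrophages, and the comparison addresses which genes IL-4 regulates, among them ones that could act on Stat6. A label field gives the tissue as bone marrow while the source field gives peritoneal macrophages. No genotype, allele or agent other than IL-4 separated the groups, and the number of mice behind each library is not given in the sources used here.

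The libraries were alike in size, with 11035641 expected counts for NT and 11250099 for IL-4, and 14842 and 14717 listed genes. All 7 macrophage markers were detected, among them Lyz2 at 11289 and 10811 FPKM (fragments scaled to transcript length and library size) and Cd68 at 3240 and 3465 FPKM. They were not all alike between the libraries. Csf1r, the receptor for the macrophage growth factor, was called higher at 145 and 270 FPKM (log2 ratio 0.90). That call was lost at an assumed coefficient of variation between replicates of 0.2 or 0.4, and at a log2 threshold of 1. Adgre1, which encodes F4/80, had a ratio of 0.42. Of 33 markers of 8 other cell types, 31 had at most 100 expected counts in both libraries and 7 were listed in neither. With 1 library per group there was no replicate check, so every interval below covers counting error only and every test compares these 2 libraries, not the conditions. A gene was called higher or lower when its log2 ratio of IL-4 over NT reached 0.75 in size with an exact p of at most 0.05 and an adjusted p of at most 0.5.

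The family divides by how its members are used. Irf3, Irf5 and Irf7 lie latent in the cytoplasm and are activated by kinases below nucleic acid and Toll-like receptors. Irf9 is the DNA-binding subunit of the complex that carries the type I interferon signal together with Stat proteins. Irf1 and Irf2 are an activator and its antagonist that bind the same elements. Irf4 and Irf8 bind DNA weakly alone and work with partners such as PU.1 and the Batf proteins. In macrophages Irf4 is known as a factor of M2 polarization, Irf5 of inflammatory activation, and Irf8 of the monocyte and macrophage lineage.

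The stretches of 250 bases before the RefSeq transcription starts of Irf4, Irf1, Irf2 and Irf8 (GRCm38.p6) are shown because Irf4 and Irf1 were the members called, Irf2 is the antagonist of Irf1 and Irf8 the closest relative of Irf4. Capitals mark matches to the gamma-activated sequence (GAS, the letters TTCNNNGAA, a Stat site) and, in Irf2 at its first match, an IRF element made of a pair of GAAA repeats with NN between them. The Irf4 sequence holds no match to either one, nor to the Stat6 form of the GAS, which has NNNN in place of NNN.
Irf4, chr13:30748983-30749232, plus strand: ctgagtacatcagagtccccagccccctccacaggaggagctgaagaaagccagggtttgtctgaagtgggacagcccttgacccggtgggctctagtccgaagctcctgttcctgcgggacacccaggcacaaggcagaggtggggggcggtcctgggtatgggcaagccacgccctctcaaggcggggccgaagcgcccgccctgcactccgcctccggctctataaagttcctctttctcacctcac
Irf1, chr11:53769764-53770013, plus strand: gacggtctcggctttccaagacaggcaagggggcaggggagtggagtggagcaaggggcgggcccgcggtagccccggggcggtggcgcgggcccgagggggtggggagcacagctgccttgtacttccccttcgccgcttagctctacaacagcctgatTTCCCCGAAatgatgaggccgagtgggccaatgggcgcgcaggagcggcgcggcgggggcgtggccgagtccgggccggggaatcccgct
Irf2, chr8:46739495-46739744, plus strand: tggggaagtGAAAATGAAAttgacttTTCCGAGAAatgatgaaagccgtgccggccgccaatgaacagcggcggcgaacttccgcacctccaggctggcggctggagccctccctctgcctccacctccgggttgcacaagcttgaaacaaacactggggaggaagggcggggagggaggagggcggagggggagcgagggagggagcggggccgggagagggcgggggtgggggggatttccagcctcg
Irf8, chr8:120736108-120736357, plus strand: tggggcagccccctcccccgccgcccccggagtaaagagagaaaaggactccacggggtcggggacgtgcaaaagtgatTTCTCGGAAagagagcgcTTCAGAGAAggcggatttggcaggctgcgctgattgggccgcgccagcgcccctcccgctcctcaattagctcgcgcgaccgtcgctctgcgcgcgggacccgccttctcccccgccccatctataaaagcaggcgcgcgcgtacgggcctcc

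The search covered the 300-base windows of RefSeq, which run on to 50 bases after the start, on both strands. Irf1 had 1 GAS match that began at position -90 from the start. Irf2 had its GAS match at -224 and its IRF element at -241. Irf8 had GAS matches that began at -171 and -153. The Stat6 form was found in 1 member, Irf9, at its first transcribed bases. Thus 3 of 8 members held a GAS, where 9.55% of 27025 genes did. The Stat6 form stood in 1 of 8 members and 8.01% of all genes, and the IRF element in 1 of 8 members and 3.99% of all genes. Irf3, Irf4, Irf5 and Irf7 held none of these letters in their windows, which does not show a lack of binding there or elsewhere. By chromatin immunoprecipitation the study reported Stat6 binding at the Irf4 promoter in macrophages given IL-4.

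Upon IL-4 stimulation Irf4 and Irf1 rose, no member fell by the call, and the other 6 were not called. Among all tested genes 4.07% were called higher and 6.28% lower. The middle of the 8463 genes with at least 200 reads lay at a log2 ratio of 0.00, with the 5th and 95th percentiles at -0.80 and 0.63, whereas the 8 Irf genes had a median of 0.14. The ratio was above 0 in 5 members and below 0 in 3. The exact p was under 0.05 in 6 members, which at these depths included ratios as small as 0.19. The share of all tested genes under that limit is not given here, so this count is no result about the family. In bulk RNA a change in the number of expressing cells and a change in RNA per cell cannot be told apart.

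**Figure D1:**
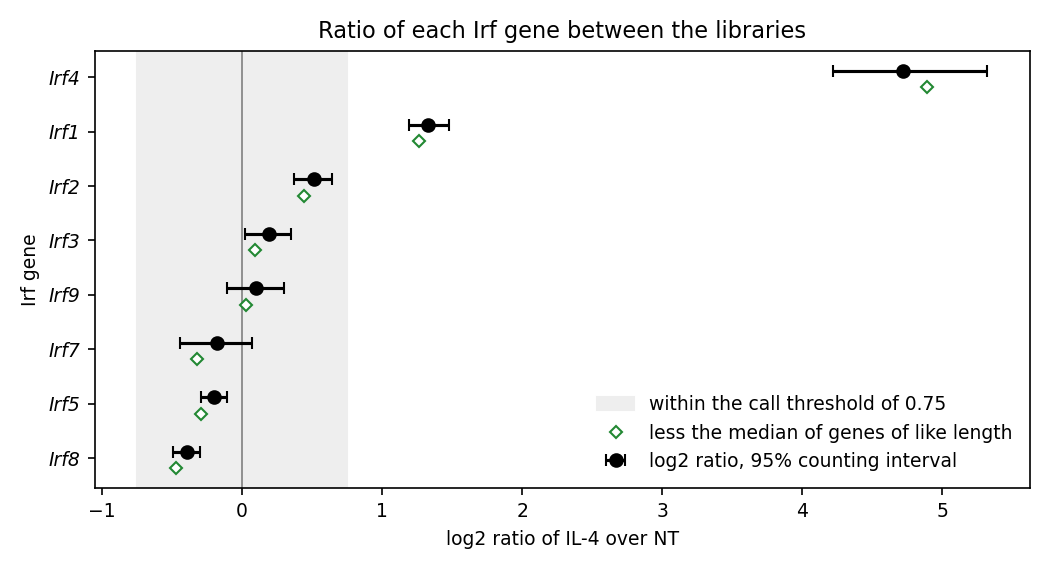
Log2 ratio of IL-4 over NT for each Irf gene (1 library per group). Black points carry 95% exact counting intervals, open diamonds show the ratio less the median of genes of like length, and grey marks the range under the call threshold of 0.75. Irf4 at 4.72 and Irf1 at 1.33 lie to the right of the grey range, and the other 6 lie within it.

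Irf4 (gene 16364, chr13:30749233-30766981, mm10), the family member tied to M2 polarization, had 30 expected counts without and 820 with IL-4. In FPKM its level went from 0.57 (95% counting interval 0.385 to 0.814) to 15.4 (14.4 to 16.5), and the intervals were far apart. The ratio was 26.4-fold (18.6 to 40.0), a log2 ratio of 4.72 (4.22 to 5.32), with an adjusted p of 1.57e-195 by the exact binomial test. Only 13 of the 8463 genes with at least 200 reads had a higher ratio. In the NT library Irf4 stood above 24.3% of the listed genes in FPKM, and in the IL-4 library above 72.4%. It thus moved from the lower part of the expressed genes to the upper part, although 5 members still had a higher level after IL-4. The quantification gave it a single transcript. The GENCODE annotation places no other gene within 1000 bases of it, so no annotated neighbour overlaps it.

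Irf1 (gene 16362, chr11:53770014-53778374), an activator of interferon-stimulated and antigen-presentation genes, had 526 expected counts in NT and 1353 in IL-4. Its level was 22.1 FPKM (20.3 to 24.1) in NT and 55.8 FPKM (52.9 to 58.9) in IL-4, with no overlap. The ratio was 2.52-fold (2.28 to 2.80), or 1.33 on the log2 scale (1.19 to 1.48), with an adjusted p of 1.8e-78 by the exact binomial test. In size this was well short of Irf4 in fold, yet Irf1 gained more FPKM because it started from a higher level. Among the genes with at least 200 reads, 130 had a higher ratio. The call was lost when a coefficient of variation of 0.4 between replicates was assumed in place of counting error alone, whereas that of Irf4 was kept. At an assumed coefficient of variation of 0.2 the adjusted p of Irf1 by the edgeR exact test was 0.0761. The Irf1 call at 0.2 thus held only under the lenient adjusted p limit of the call rule and missed a limit of 0.05.

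Irf2 (gene 16363, chr8:46739745-46847458), the antagonist of Irf1 on shared elements, had 772 expected counts in NT and 1118 in IL-4. Its levels were 28.1 and 39.9 FPKM. The log2 ratio of 0.51 (0.37 to 0.64) excluded 0 but lay below the call threshold. The pair changed places in level: Irf1 stood at 0.789 of Irf2 in NT and at 1.40 times Irf2 in IL-4. The ratio of Irf1 to Irf2 thus moved by 1.78-fold (1.55 to 2.04), a quantity that depends on no scaling of the libraries.

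Irf5 (gene 27056, chr6:29526130-29541869), the inflammatory member, was the most abundant of the family in both libraries. It had 2328 and 2066 expected counts, and levels of 102 FPKM (97.7 to 106) in NT and 88.6 FPKM (84.8 to 92.5) in IL-4. The intervals did not overlap, but the log2 ratio of -0.20 (-0.29 to -0.11) was within the central range of all genes and was not called. It stood above 95.6% of listed genes in NT and 94.5% in IL-4. Irf5 thus stayed among the most abundant transcripts of these cells under IL-4.

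Irf8 (gene 15900, chr8:120736358-120756694), the lineage factor and closest relative of Irf4, followed Irf5 in NT. It had 2180 and 1691 expected counts, with levels of 68.8 FPKM (66.0 to 71.8) and 52.3 FPKM (49.9 to 54.9). Its log2 ratio of -0.39 (-0.49 to -0.30) was the lowest of the family, and it was not called. The ratio of Irf5 to Irf8 was 1.48 in NT and 1.69 in IL-4, a change of 1.14-fold (1.05 to 1.25).

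Irf3 (gene 54131, chr7:44997648-45002848), the latent factor of the first interferon-beta response, had 573 expected counts in NT and 665 in IL-4, or 25.2 and 28.6 FPKM. Its log2 ratio was 0.19 (0.02 to 0.35), with an adjusted p of 0.0721 by the exact binomial test. The ratio of genes of its length was itself above 0, and less that median the value was 0.09 (-0.07 to 0.25). No difference of Irf3 was thus detectable once length was considered.

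Irf7 (gene 54123, chr7:141263183-141266499), the interferon-inducible factor of type I interferon amplification, had 273 and 245 expected counts, or 13.4 and 12.2 FPKM. The log2 ratio of -0.18 (-0.44 to 0.07) included 0. Irf9 (gene 16391, chr14:55603985-55610030), of the interferon signal complex, had 390 and 425 expected counts, or 14.4 and 15.1 FPKM, and a log2 ratio of 0.10 (-0.11 to 0.30). Less the median of genes of like length, the ratio of Irf7 was -0.32 (-0.58 to -0.07; adjusted p 0.0479 by the exact binomial test, 0.333 without that step), which excluded 0 but stayed short of the call threshold, and that of Irf9 was 0.03. Relative to Irf3, Irf7 stood at 0.534 in NT and 0.425 in IL-4 in FPKM, which also reflects the different length assigned to Irf7 in each library. In counts the ratio of Irf7 to Irf3 changed by 0.773-fold (0.626 to 0.955).

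**Figure D2:**
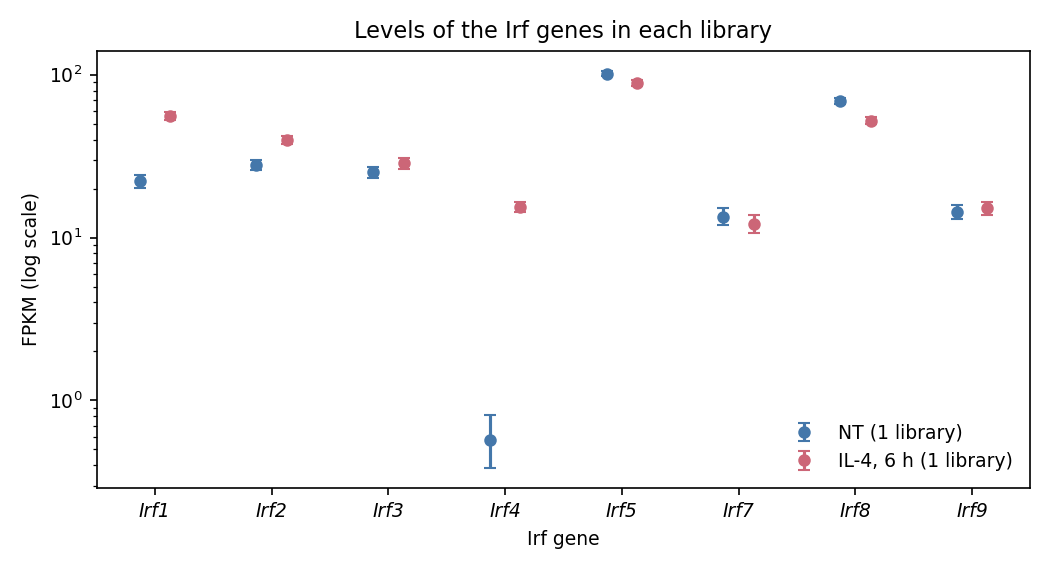
FPKM on a log axis of each Irf gene in the NT library (blue) and the IL-4 library (red), with 95% exact counting intervals. Irf4 has the widest gap, from 0.57 to 15.4 FPKM, and Irf5 is the highest gene in both libraries at 102 and 88.6 FPKM.

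The order of the levels changed with Irf1 and Irf4. In NT it ran Irf5, Irf8, Irf2, Irf3, Irf1, Irf9, Irf7, Irf4. The intervals of neighbours overlapped between Irf2 and Irf3, Irf3 and Irf1, and Irf9 and Irf7. Overlap alone does not show that levels are equal, and the levels of these neighbours were not tested against each other. Irf4 was the last by far, with Irf7 above it by 23.6-fold. In IL-4 the order was Irf5, Irf1, Irf8, Irf2, Irf3, Irf4, Irf9, Irf7. Here Irf1 and Irf8 overlapped, as did Irf4 with Irf9 and Irf9 with Irf7. Irf1 moved from rank 5 to rank 2 and Irf4 from rank 8 to rank 6.

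The summed level of the 8 genes was 274 FPKM in NT and 308 FPKM in IL-4. Irf5 and Irf8 together made up 62.2% of it in NT and 45.8% in IL-4. Irf4 and Irf1 made up 8.28% and 23.1%. Most of that gain was Irf1, from 8.07% to 18.1%, while Irf4 went from 0.208% to 5.0%. The makeup of the family therefore differed more between the libraries than its sum.

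**Figure D3:**
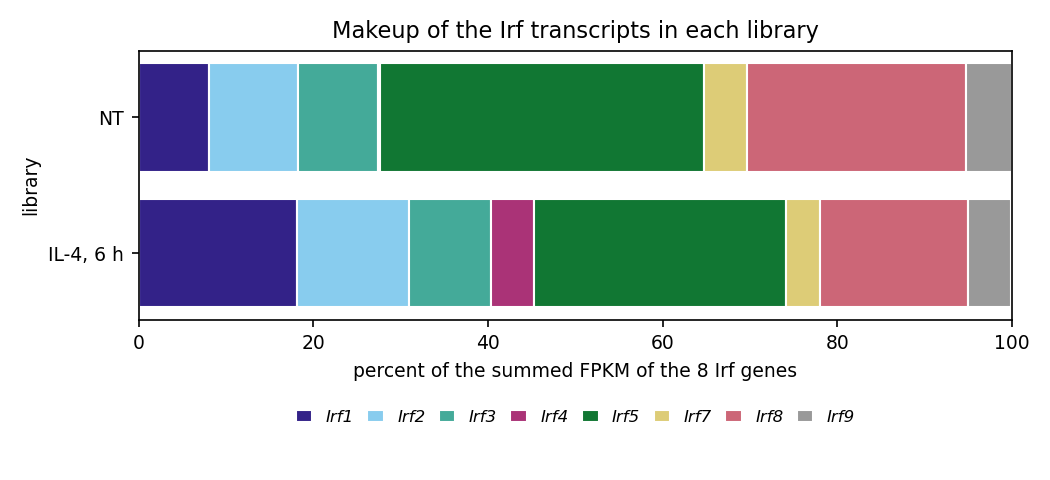
Share of each Irf gene in the summed FPKM of the family, as percent, in each library (1 bar per library). Irf5 narrows from 37.1% to 28.8% and Irf8 from 25.1% to 17.0%, while Irf1 widens from 8.07% to 18.1% and Irf4 from 0.208% to 5.0%.

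Irf4 was also set against the members it is usually contrasted with. Irf5 exceeded Irf4 by 179-fold in FPKM in NT and by 5.75-fold in IL-4, so the ratio of Irf4 to Irf5 moved by 30.8-fold (21.3 to 46.1). Irf8 exceeded Irf4 by 121-fold in NT and 3.40-fold in IL-4, a move of 35.2-fold (24.3 to 52.8). Both members remained more abundant than Irf4 after 6 h of IL-4. Irf1 stood at 0.322 of Irf8 in NT and at 1.07 times Irf8 in IL-4, a move of 3.32-fold (2.94 to 3.74).

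**Figure D4:**
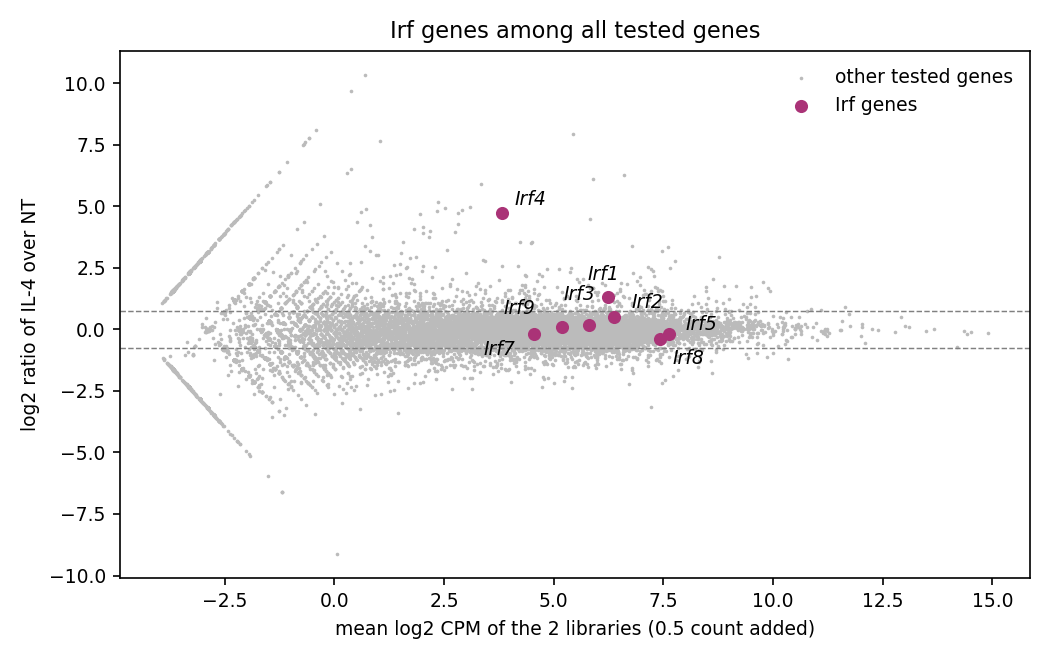
Log2 ratio of IL-4 over NT against the mean log2 CPM (counts scaled to library size, 0.5 count added) for all 15593 tested genes in grey and the 8 Irf genes in purple. Dashed lines mark the thresholds of 0.75. Irf4 at 4.72 and Irf1 at 1.33 lie above the upper line and the other 6 between the lines, while genes of few reads spread into the wings on the left.

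Some members share bases with neighbouring genes, and the sources used here do not say whether the counting used strand. Irf9 shares 123 exon bases with Rnf31 on the same strand, a ubiquitin ligase subunit gene with 404 and 300 expected counts and a log2 ratio of -0.46. Irf5 shares 411 exon bases with Tnpo3 on the opposite strand (902 and 1009 expected counts). Irf3 shares 88 with Bcl2l12 (59 and 66 expected counts) and Irf7 45 with Phrf1 (741 and 619). Irf1, a called member, shares 135 exon bases with the protein-coding gene Gm17334 on the opposite strand, for which no value was used here. The 4 neighbours with values were not called, and the values of Irf1, Irf3, Irf5, Irf7 and Irf9 are uncertain to the extent of these overlaps. The protein-coding gene Gm20388 overlaps Irf8 by 20337 bases on the same strand, with 0 shared exon bases. Irf2 overlaps Gm45479, Gm31172 and Gm45481 on the opposite strand, also with 0 shared exon bases. For these genes over Irf8 and Irf2 no value was used here. The mean transcript length assigned to Irf7 was 1844 bases in NT and 1793 in IL-4, and that of Irf9 was 2453 and 2489.

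The genes whose levels in the 2 libraries lay nearest to those of Irf4, by distance on the log2(FPKM + 0.1) scale among genes with at least 200 reads, were Mmp13, Plekhf1 and Serpina3h. Mmp13, a collagenase, had 15 and 455 expected counts and lay at a distance of 0.14. Plekhf1, an endosomal phosphoinositide-binding protein, had 10 and 301 at a distance of 0.16. Serpina3h had 14.5 and 406 at a distance of 0.24, and its counts are estimates split among near-identical serpin genes. With 1 library per group this likeness rests on 2 values per gene.

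**Figure D5:**
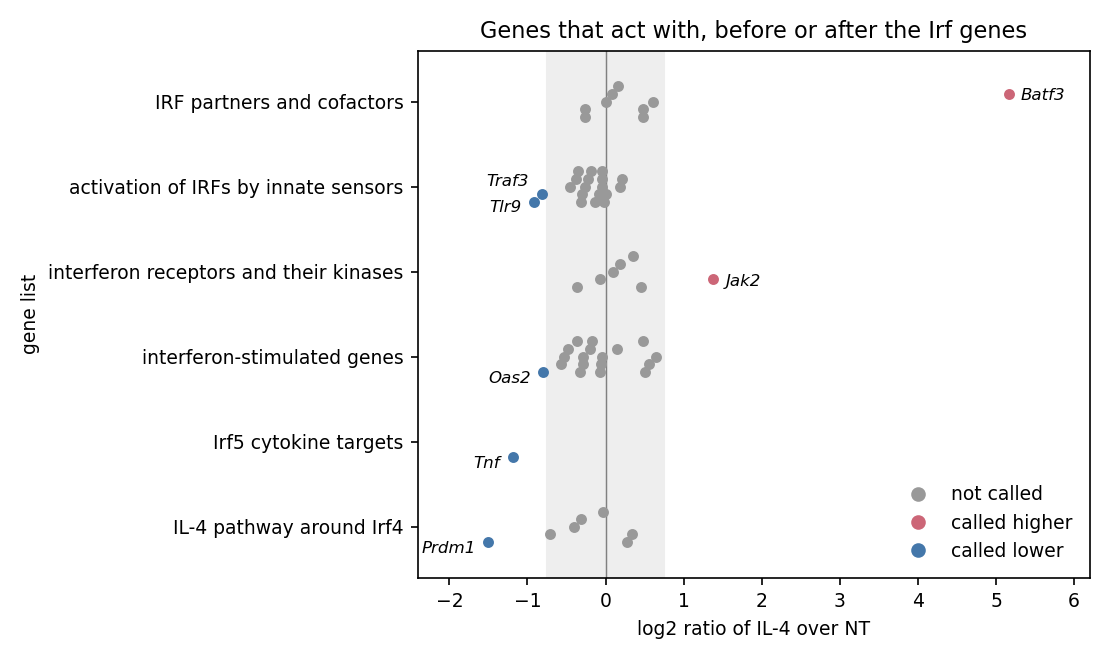
Log2 ratio of IL-4 over NT for genes with at least 50 reads in the 2 libraries together, in lists of genes that act with, before or after the Irf genes. Red marks genes called higher (Batf3, Jak2) and blue genes called lower (Traf3, Tlr9, Oas2, Tnf, Prdm1), and the grey band is the range under the call threshold of 0.75.

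Of 10 partners and cofactors of the IRFs, 1 was called higher and 0 lower, beside 4.07% and 6.28% of all genes, and their median log2 ratio was 0.12, against -0.03 over all tested genes. Batf3, a basic leucine zipper protein that binds composite elements together with Irf4 or Irf8, rose from 9 to 345 expected counts, or 1.19 to 44.6 FPKM. Its log2 ratio was 5.16 (4.29 to 6.37, adjusted p 2.14e-86, exact binomial test). That of Irf4 was 4.72 (4.22 to 5.32). The intervals overlapped, and the ratios of Batf3 and Irf4 were not tested against each other. The related Batf had 170 and 264 expected counts and a log2 ratio of 0.61 (0.32 to 0.89), which missed the threshold of 0.75 but passed one of 1.5-fold. Spi1, which encodes PU.1, was the most abundant partner at 230 FPKM in each library, with a log2 ratio of 0.00 (-0.06 to 0.07). Stat2, a partner of Irf9, had a ratio of 0.48, and the corepressor genes Irf2bp1, Irf2bp2 and Irf2bpl had -0.27, 0.16 and -0.26.

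Of 19 sensors, adaptors and kinases that activate Irf3, Irf5 and Irf7, 0 were called higher, where 4.07% of all genes were. The 2 called lower were a share of 10.5% against 6.28% of all genes, and the median was -0.19. Tlr9, a receptor for unmethylated DNA, had 71 and 38 expected counts (-0.92). Traf3, an adaptor of the interferon branch, had 443 and 256 (-0.82), and less the median of genes of like length its ratio was -0.42 and no call. Both calls were lost with a coefficient of variation of 0.2, with 1 added to FPKM and with a threshold of 1 on the log2 scale. The most abundant of the list was Tlr7, a receptor for single-stranded RNA, at 60.3 and 48.1 FPKM.

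Of the 7 interferon receptor and kinase genes 1 was called higher and 0 lower, where 4.07% and 6.28% of all genes were, with a median of 0.18. Jak2, a kinase of the interferon-gamma receptor, rose from 568 to 1509 expected counts, or 10.1 to 26.4 FPKM, with a log2 ratio of 1.38 (1.24 to 1.52; adjusted p 3.49e-92, exact binomial test), a call lost at a coefficient of variation of 0.4. Ifngr2, a chain of that receptor, was the most abundant at 140 and 178 FPKM. None of the 8 interferon ligand genes was listed in either library, where the lowest FPKM listed is 0.01.

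Of 22 interferon-stimulated genes 0 were called higher, where 4.07% of all genes were. The 2 called lower were a share of 9.09% against 6.28% of all genes, and the median was -0.18. Oas2, an antiviral oligoadenylate synthetase, had 89 and 52 expected counts (-0.80), and Mx1, an antiviral GTPase, had 17.1 and 6.25 (-1.41). Both calls were lost under 5 of 12 other settings. The most abundant was Bst2, which tethers budding virus to the cell, at 75.4 and 107 FPKM with a log2 ratio of 0.51. Gbp2, an interferon-inducible GTPase, had 250 and 400 expected counts and a log2 ratio of 0.65 (0.42 to 0.88), which was called higher only at a threshold of 1.5-fold, and Oas1a had a ratio of 0.55.

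Of 6 cytokine genes known as targets of Irf5, 5 were tested. Of these, 0 were called higher and 1 lower, beside 4.07% and 6.28% of all genes, so the share of 20.0% lower rests on 1 gene. It was Tnf, which fell from 99 to 44 expected counts (-1.19), a call lost at a coefficient of variation of 0.4. In neither library did any other exceed 5 expected counts, so no difference was detectable at this depth. The 8 genes of the IL-4 pathway around Irf4 had a median of -0.17, with 0 called higher and 1 lower. That share of 12.5% lower also rests on 1 gene, against the same 4.07% higher and 6.28% lower of all genes. Prdm1, a repressor that Irf4 induces in plasma cells, fell from 145 to 52 expected counts, or 2.49 to 0.88 FPKM (95% counting interval of the log2 ratio -1.99 to -1.04), a call also lost at that setting. Kdm6b, the histone demethylase reported to act on the Irf4 gene, had 88 and 108 expected counts and a log2 ratio of 0.27 (-0.15 to 0.69). The IL-4 receptor chains Il4ra and Il2rg had 0.34 and -0.03, and Stat6 had -0.31. The chain Il13ra1 had 327 and 203 expected counts and a log2 ratio of -0.71 (-0.98 to -0.46), which missed the threshold of 0.75 but was called lower at one of 1.5-fold. Il2rg was the most abundant of the list at 124 and 121 FPKM.

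Irf4 is also made by B cells, plasma cells and dendritic cells, so markers of these cells were read beside it. The 5 B cell markers summed to 106 expected counts in NT and 97 in IL-4, and 0 of 5 were called. Of the 4 plasma cell markers, Jchain and Mzb1 had 2 counts in NT and 3 in IL-4, while Sdc1, at 113 and 75.4 FPKM, was not called and Xbp1, at 54.7 and 93.0 FPKM, was called higher at 0.77, a call lost under 5 of 12 other settings. The dendritic cell list summed to 29.8 and 27.5 counts, with Flt3 at 1 count in each library. The neutrophil list summed to 35 and 21 and the eosinophil list to 53 and 28, in which Siglecf (53 and 27) was called lower. The T cell list gave 20.7 and 21.2, the mast cell list 30 and 18, and the mesothelial list 92 and 74 with Msln (12 and 2) called lower. Apart from Sdc1 and Xbp1, the markers of the other cell types known to make Irf4 were thus low and not called in either direction.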

How the data were processed

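Total RNA from 1 NT and 1 IL-4 library was sequenced, and per the labels and the study's methods the reads were aligned with Bowtie to GRCm38/mm10 and quantified with RSEM over RefSeq transcripts (versions not given in the sources used here). The authors deposited, per gene and library, expected counts, FPKM and a mean transcript length in bases, and listed only genes with a value. Each expected count was rounded to a whole number, and genes without an entry were set to 0 (15593 genes tested, 30 left out because they rounded to 0). Gene symbols were matched by gene ID for 15587 of 15623 genes.

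Groups were taken from the sample titles. Each gene was compared with an exact two-sided binomial test conditional on its total and on the library totals (SciPy 1.17.1, Python 3.11.15), with a Clopper-Pearson 95% interval and Benjamini-Hochberg adjustment over all tested genes. The statistic was tested on data simulated with counting error only, with changes well above the call threshold in genes of many reads. That setting holds no spread between replicates and does not test calls near the threshold. Log2 ratios used 0.5 added counts. A like-length median was also subtracted from each ratio, and edgeR 4.0.16 was run with an assumed coefficient of variation. Levels are compared between genes in FPKM only.

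The family members and lists were chosen with earlier results of these data known. Named were the 8 Irf genes and, of each list, the gene of highest FPKM and called genes that reached 50 expected counts in a library, the 3 genes nearest to Irf4 and genes overlapping a member. Batf, Stat2, the Irf2bp genes, Il4ra, Il13ra1, Gbp2, Oas1a, Adgre1, Stat6, Kdm6b, Mx1, Lyz2, Cd68 and the other cell type markers were named after their values were seen. Promoter sequences are those of RefSeq (GRCm38.p6), found for 8 of 8 members, and overlaps come from GENCODE M21.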

Additional observations from a re-analysis of the deposited data

How the results depend on the processing

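The 12 alternatives gave 96 comparisons for the 8 Irf genes, in which no ratio changed sign and 95 kept their side of the threshold. The exception was Irf1 at 1.33, not called with edgeR at a coefficient of variation of 0.4, which left 1 member called higher. At 0.2 Irf1 was called only under the lenient adjusted p limit, with an adjusted p of 0.0761 by the edgeR exact test. Many of these comparisons could not differ. The limit of at least 10 reads, the other call thresholds and the edgeR settings kept the main ratio, so its sign was fixed there. For uncalled members, settings that only made calls stricter could not yield a call. Irf4 ranged from 3.38 (1 added to FPKM) to 4.89, Irf1 from 1.26 to 1.37, Irf5 from -0.29 to -0.16 and Irf8 from -0.47 to -0.36. Over all genes, against 635 higher and 979 lower, the counts were 391 and 399 with 1 added to FPKM, 408 and 476 at a log2 ratio of 1 with an adjusted p of at most 0.05, 390 and 423 at a coefficient of variation of 0.2, and 65 and 8 at 0.4. Of the list genes, 2 called higher became 4 at a fold of 1.5 and 1 at a coefficient of variation of 0.4. The 6 called lower became 2 with 1 added to FPKM, 2 at a log2 ratio of 1, 2 at a coefficient of variation of 0.2 and 0 at 0.4. The causes were not tested beyond what each setting changes by construction. No paired analysis was possible because NT and IL-4 were measured in 1 library each. The spread between replicates cannot be estimated from these data, the assumed values stand in for it, and intervals cover counting error only. Other scalings moved every ratio by at most 0.037.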
